A study of Mus musculus with 28 samples.

Results

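Of the 51912 genes counted in mouse gut nuclei, 37 lie on the mitochondrial chromosome, and these are described here. They were chosen by position alone, as the genes whose symbols begin with mt-. They comprise 13 protein-coding genes of 204 to 1824 bases, 2 rRNA genes of 955 and 1582 bases and 22 tRNA genes of 59 to 75 bases. The 3 classes were kept apart. Over all libraries the rRNA genes held 6754197 counts, the protein-coding genes 1837969 and the tRNA genes 49.

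The mitochondrial chromosome is a circular DNA kept inside the organelle. Both of its strands are transcribed into long precursors, which are cut at the tRNAs into rRNAs, tRNAs and mRNAs. The mRNAs encode membrane subunits of respiratory complexes I, III and IV and of the ATP synthase. All other subunits of these complexes, the mitochondrial ribosomal proteins and the transcription machinery are encoded in the nucleus. Mitochondrial transcripts are made and kept outside the nucleus, so in a preparation of sorted nuclei they are the RNA of a cytoplasmic organelle. The nuclear genome also carries old copies of mitochondrial DNA, which read counting can take for the original.

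The libraries came from C57BL/6 mice that were germ-free (GF) or specific pathogen-free (SPF). All of them, in every group, had received AAV9-CaMKII-EGFPKASH intravenously, a virus that puts a green fluorescent protein on the nuclear envelope under a CaMKII promoter. The longitudinal muscle with the myenteric plexus was taken 5 weeks later from the colon or the small intestine, and its nuclei were sorted into an EGFP-positive fraction, called neuronal here, and an EGFP-negative fraction, called non-neuronal. This gave 8 groups, with 3 GF or 4 SPF libraries in each, and 28 libraries in all. The neuronal fraction is limited to nuclei in which the virus and its promoter were active, and the labels do not say which libraries came from the same animal. The spread behind each p-value is therefore that between libraries, and it may be technical.

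Library totals ranged from 2394481 to 7321875 counts. In each SPF group, replicates 3 and 4 stood apart from replicates 1 and 2. The X-inactivation transcript Xist was at 5594 to 16060 CPM (a gene's count scaled to a common library total) in the former and at 7.12 to 63.0 CPM in the latter, while the Y-linked gene Kdm5d was at 0.226 to 3.76 CPM and 168 to 379 CPM. All GF libraries had Xist at 8.06 to 19.6 CPM and Kdm5d at 64.7 to 525.9 CPM. SPF results are therefore also given for either pair of replicates where it matters. The summed level of 12 enteric neuron markers ran from 4679 to 7858 CPM in the neuronal and from 34.5 to 2036 CPM in the non-neuronal fraction. The 10 smooth muscle markers summed to 332 to 1286 CPM in the former and 8530 to 19610 CPM in the latter.

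Nuclear copies took part of the counts of several protein-coding genes, so the copies are shown before the values. A stretch of chromosome 1 on the minus strand of GRCm38, chr1:24611535-24616197, holds 7 annotated pseudogenes that correspond, in the same order, to positions 6390 to 11042 of the mitochondrial chromosome. Gm28661, Gm10925, Gm28437 and Gm10222 were identical to mt-Co2, mt-Atp6, mt-Co3 and mt-Nd4l over 681, 678, 783 and 294 bases. Gm28439 was identical to mt-Nd4 over its first 876 bases and held 0 counts in all libraries. Gm28438 matched mt-Nd3 over 345 bases with 1 difference, T3C, and Gm29216 matched the end of mt-Co1 over 483 bases with 1 difference, A1066T. Positions count from the first base of the mitochondrial gene, and the mitochondrial base comes first. The following stretches, all from GENCODE M21 transcripts of GRCm38, have the length of a read, 75 bases. In the first 75 bases of mt-Nd3 and its copy the differing base is in capitals. Within the 345 aligned bases, a read had to cover it to tell the genes apart.
mt-Nd3: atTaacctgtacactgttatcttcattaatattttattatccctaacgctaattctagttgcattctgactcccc
Gm28438: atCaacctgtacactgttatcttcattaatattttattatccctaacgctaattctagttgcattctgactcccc
The first 75 bases of mt-Atp6 and Gm10925, and of mt-Co3 and Gm28437, held no difference, and the same holds for the rest of their aligned length.
mt-Atp6: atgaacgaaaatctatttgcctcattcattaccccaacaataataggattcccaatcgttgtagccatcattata
Gm10925: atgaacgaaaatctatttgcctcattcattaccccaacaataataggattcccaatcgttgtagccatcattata
mt-Co3: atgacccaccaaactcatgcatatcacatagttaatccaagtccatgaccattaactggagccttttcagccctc
Gm28437: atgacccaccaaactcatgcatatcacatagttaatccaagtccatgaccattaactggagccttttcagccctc

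Every stretch of 75 bases along each mitochondrial gene was searched for in the copies. Of these stretches, 99.86% in mt-Co3, 99.51% in mt-Co2 and in mt-Atp6, 98.65% in mt-Nd4l and 97.81% in mt-Nd3 also occurred in a copy. The share was 61.5% in mt-Nd4, 39.84% in mt-Co1, 5.71% in mt-Nd2 and 1.66% in mt-Nd5. It was 0% in both rRNA genes, mt-Nd1, mt-Atp8, mt-Nd6 and mt-Cytb. Only annotated genes were searched, so 0% does not show that the nuclear genome lacks a copy. mt-Atp8, at positions 7766 to 7969, lies within the span 6390 to 11042 that the chromosome 1 stretch covers, but no annotated gene there matched it. Reads with mismatches could still be divided, and Gm11408 held 71 of the 485 counts of mt-Nd6 and its copy in SPF small intestinal non-neuronal replicate 4, or 14.64%, and at most 2.44% in any other library. Sharing within the chromosome was small by comparison. mt-Atp8 and mt-Atp6 overlap by 43 bases on the same strand, shown in capitals in bases 130 to 204 of mt-Atp8.
mt-Atp8: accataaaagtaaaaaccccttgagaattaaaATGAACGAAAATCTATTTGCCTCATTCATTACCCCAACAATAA
mt-Nd4l and mt-Nd4 overlap by 7 bases on the same strand. mt-Nd5 and mt-Nd6 overlap by 14 bases on opposite strands, and the strand setting of the counting is not known here, so reads of this overlap may belong to either.

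The copies held a large part of the counts of the genes they match. Over all libraries Gm10925 and a minor copy, Gm43743, took 90.6% of the counts of mt-Atp6 and its copies together. The copies took 69.7% for mt-Co2, 57.2% for mt-Co3, 44.97% for mt-Nd3, 8.92% for mt-Co1 and 2.79% for mt-Nd4l. The division often fell wholly to one gene. In the SPF colonic non-neuronal libraries mt-Co3, a core subunit of complex IV, held 259, 0, 0 and 1 counts, while Gm28437 held 0, 403, 678 and 721. So within 1 group the counts sat with the mitochondrial gene in replicate 1 and with the pseudogene in the others. mt-Co3 held at most 3 counts in 18 libraries where the sum exceeded 50, and mt-Atp6 did so in 13, mt-Co2 in 6, mt-Nd4l in 2 and mt-Nd3 in 1. Results for these genes are therefore given both from their own counts and with the counts of the copies added, a step chosen after the data were seen. Other copies of these and other mitochondrial genes with a group mean of at least 1 CPM were Gm13340 and Gm13341 on chromosome 2, Gm43743 on chromosome 3, Gm11407, Gm11408 and Gm11410 on chromosome 4 and Gm4076 on chromosome 13. Their highest group means were 1.41 to 5.84 CPM.

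**Figure D1:**
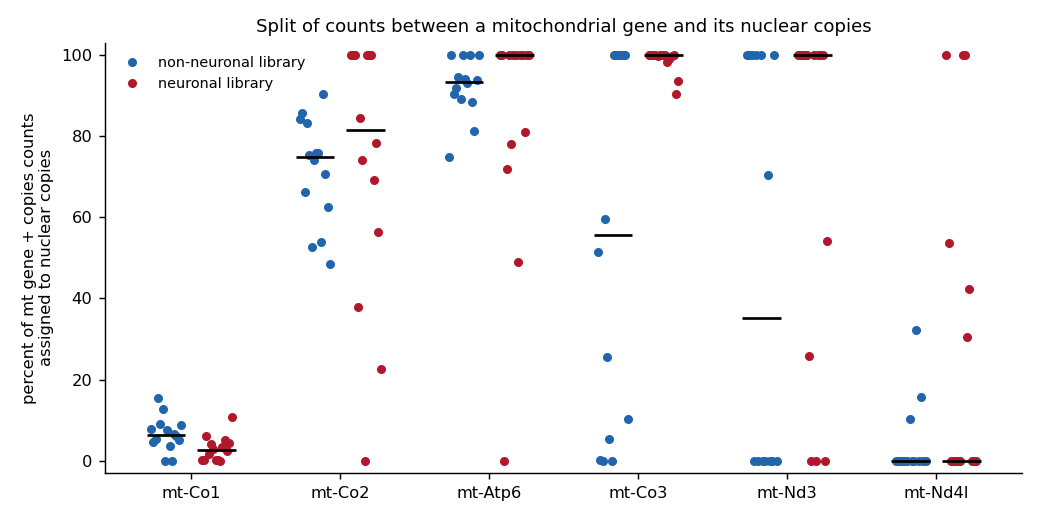
Percent of the counts of a mitochondrial gene and its nuclear copies that were assigned to the copies, by gene on the x axis. Each dot is 1 library (blue, non-neuronal; red, neuronal) and black lines are medians of each fraction. For mt-Co3 and mt-Nd3 most libraries sit at or near 0% or 100%, while for mt-Co1 all sit between 0% and 15.5%.

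The neuronal libraries held a smaller share of mitochondrial mRNA than the non-neuronal libraries of the same segment, in all 4 comparisons and without overlap. The 13 protein-coding genes took 0.748%, 0.824%, 1.097% and 1.249% of library counts in the SPF colonic non-neuronal libraries and 0.130%, 0.09996%, 0.113% and 0.143% in the neuronal ones. Folds between mean shares, here and below, are ratios of geometric means. The mean share was 7.97-fold lower in the neuronal fraction (log2 ratio -2.99, exact two-sided permutation p = 0.0286, adjusted p = 0.0857 over 12 comparisons). In the SPF small intestine the shares were 2.44%, 3.06%, 3.07% and 1.96% in non-neuronal and 0.504%, 0.686%, 0.935% and 1.53% in neuronal libraries. The mean was 3.09-fold lower (log2 ratio -1.63, with the same exact permutation p and adjusted p). In the GF colon 1.82%, 0.826% and 1.15% stood against 0.184%, 0.205% and 0.211%, a 6.02-fold lower mean. In the GF small intestine 9.20%, 2.98% and 4.41% stood against 0.812%, 0.620% and 1.56%, a 5.35-fold lower mean. In both GF comparisons the exact permutation p was 0.1, the smallest that 3 libraries against 3 allow, with an adjusted p of 0.133. No share comparison passed 0.05 after adjustment, and with these group sizes none could. The exact permutation p of 0.0286 in SPF libraries was itself the smallest that 4 libraries against 4 allow. In bulk libraries of sorted nuclei, fewer nuclei of a type and less RNA per nucleus cannot be told apart. Neither can be told apart from a smaller amount of organelle RNA carried along with the sorted nuclei. Markers of several cell types moved with the fractions, smooth muscle and neuron markers as given above. The 7 fibroblast markers summed to 842 to 1577 CPM in non-neuronal and 11.4 to 88.4 CPM in neuronal nuclei, and the 8 endothelial markers to 50.7 to 1345 CPM and 0.826 to 54.2 CPM. Markers of interstitial cells of Cajal went the other way in the small intestine. Their summed medians there were 759 CPM (SPF) and 652 CPM (GF) in neuronal against 286 and 298 CPM in non-neuronal libraries. In the colon the medians were 407 and 389 CPM against 426 and 512 CPM. The part of all these cell types in the shares was not tested.

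Between gut segments, the colon held the smaller share of mitochondrial mRNA in both fractions and both microbiota states, again without overlap. From the values above, the mean share in SPF neuronal libraries was 6.97-fold below that of the small intestine in the colon (log2 ratio -2.80), and in SPF non-neuronal libraries 2.70-fold lower (log2 ratio -1.43). For both, the exact two-sided permutation p was 0.0286 and the adjusted p 0.0857. In GF libraries the share was 4.63-fold lower in neuronal and 4.12-fold lower in non-neuronal libraries of the colon (exact permutation p = 0.1 and adjusted p = 0.133 for both). These comparisons use the same libraries as those between fractions. The summed level of 14 epithelial markers also differed by segment. It was 1966 to 13314 CPM in SPF and 3208 to 5764 CPM in GF colonic non-neuronal libraries, against 428 to 909 CPM and 249 to 3266 CPM in the small intestine, and 19.8 to 94.1 CPM in all neuronal libraries. Smooth muscle markers summed to 8530 to 17017 CPM in colonic and 14639 to 19610 CPM in small intestinal non-neuronal libraries. Enteric neuron markers had higher medians in the colonic ones, with an overlap in SPF libraries only, at 929 to 2036 CPM in SPF and 1093 to 1753 CPM in GF libraries against 34.5 to 971 CPM and 53.0 to 212 CPM in the small intestine. Endothelial markers summed to 512 to 1345 CPM (SPF) and 804 to 1141 CPM (GF) in the colonic and 106 to 195 CPM and 50.7 to 148 CPM in the small intestinal ones. In the neuronal fraction, 4 markers of interstitial cells of Cajal summed to 702 to 2252 CPM in SPF and 460 to 681 CPM in GF small intestinal libraries, above 346 to 504 CPM and 299 to 443 CPM in the colonic ones. The part of these cell types, and of organelle RNA carried along with the nuclei, in the segment difference was not tested.

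SPF colonic neuronal libraries, with the lowest shares of all, lay below the GF ones without overlap. The mean share was 1.66-fold lower in SPF (log2 ratio -0.73, exact two-sided permutation p = 0.0571, the smallest that 3 libraries against 4 allow, adjusted p = 0.133). In the other 3 groups the SPF and GF values overlapped. The log2 ratios of SPF to GF were -0.14 in small intestinal neuronal (exact permutation p = 0.8), -0.32 in colonic non-neuronal (exact permutation p = 0.343) and -0.93 in small intestinal non-neuronal libraries (exact permutation p = 0.171). The highest share in the study, 9.20%, was in GF small intestinal non-neuronal replicate 1.

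**Figure D2:**
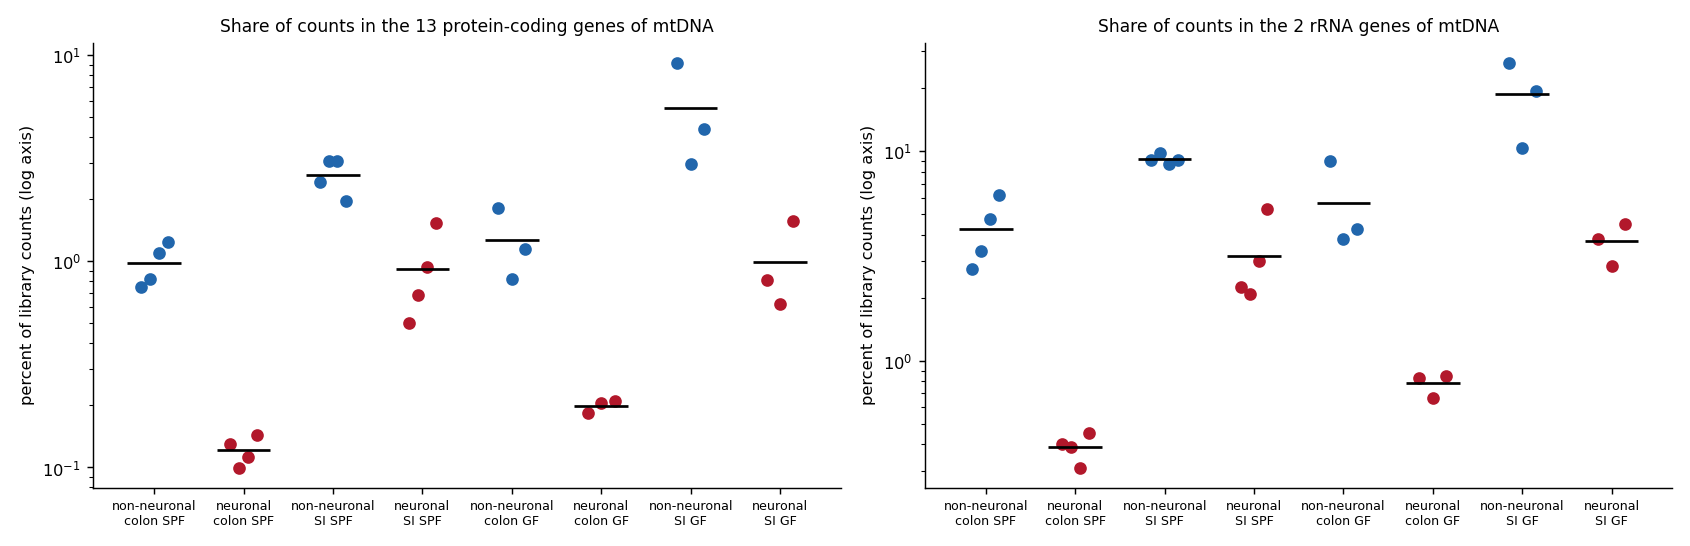
Percent of library counts, on a log axis, in the 13 protein-coding genes (left) and the 2 rRNA genes (right) for the 8 groups; dots are libraries and lines are means, with non-neuronal libraries in blue and neuronal in red. The SPF colonic neuronal libraries are lowest in both panels, at 0.09996% to 0.143% and 0.310% to 0.455%.

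The 2 rRNAs form the small and large subunits of the mitochondrial ribosome and were by far the most abundant class. mt-Rnr1 (ENSMUSG00000064337, chrM:70-1024) is the small-subunit rRNA. In the SPF colon it was at 7872, 10680, 16504 and 26142 CPM in non-neuronal libraries and at 1678, 1243, 1192 and 1432 CPM in neuronal ones. The lowest non-neuronal library was thus well above the highest neuronal one (log2 fold change -3.51 ± 0.51 SE, edgeR quasi-likelihood adjusted p = 0.000116). mt-Rnr2 (ENSMUSG00000064339, chrM:1094-2675), the large-subunit rRNA, was at 19561, 22923, 31182 and 35796 CPM against 2332, 2663, 1911 and 3120 CPM (-3.50 ± 0.43, edgeR adjusted p = 1.72e-05). In the SPF small intestine mt-Rnr2 was at 61252, 61957, 52422 and 52339 CPM in non-neuronal and 12601, 14721, 21042 and 34542 CPM in neuronal libraries (-1.58 ± 0.40, edgeR adjusted p = 0.0101). mt-Rnr1 was called lower there too (-1.80 ± 0.48, edgeR adjusted p = 0.0136), though not without SPF small intestinal neuronal replicate 2. In GF libraries mt-Rnr1 had log2 fold changes of -2.86 ± 0.57 in the colon (edgeR adjusted p = 0.00351) and -3.38 ± 0.59 in the small intestine (edgeR adjusted p = 0.00053). Both rRNAs were therefore called lower in neuronal libraries in all 4 comparisons, where called means an adjusted p below 0.05 over all 20964 genes tested. Of those genes 7.56% were called lower in the SPF colon, 5.99% in the SPF small intestine, 4.96% in the GF colon and 5.33% in the GF small intestine.

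Between segments, both rRNAs were called lower in the colon in neuronal libraries (0.405% of all genes tested in SPF and 0.168% in GF libraries) and in neither comparison of non-neuronal libraries (0.531% and 0.493%). In SPF neuronal libraries mt-Rnr1 differed by -3.18 ± 0.33 and mt-Rnr2 by -3.26 ± 0.32 (edgeR adjusted p = 5.47e-05 for both). In GF neuronal libraries they differed by -2.08 ± 0.36 and -2.35 ± 0.36 (edgeR adjusted p = 0.0125 and 0.00594), and neither was called without GF colonic neuronal replicate 1 or 2, nor mt-Rnr1 without colonic replicate 3 or small intestinal replicate 1 or 3. The non-neuronal values for mt-Rnr2 were -1.48 ± 0.45 in SPF and -2.57 ± 0.54 in GF libraries (edgeR adjusted p = 0.146 and 0.0713). Whether the fractions differ in this is the interaction of segment and fraction, given below.

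Per gene, the protein-coding class was mostly called lower in neuronal libraries. From their own counts, 9 of 13 protein-coding genes were called lower in the SPF colon, where 7.56% of all 20964 genes tested were, 7 in the SPF small intestine (background 5.99%), 9 in the GF colon (4.96%) and 9 in the GF small intestine (5.33%). None was called higher, where 3.27%, 9.09%, 2.19% and 5.6% of all genes were. The median log2 fold changes of the 13 genes were -3.19, -1.72, -2.68 and -3.38, against -0.05, 0.03, -0.07 and 0.02 over all genes tested. In the GF colon mt-Co2 and mt-Co3 had 0 own counts in all neuronal libraries, so their fitted values are no measure of size, but any value below the median leaves it as given. mt-Nd3 had 0 own counts in all 6 libraries there, and the median of the other 12 was -2.73. With the copies added, 12, 11, 12 and 12 of 13 were called. The gene uncalled in all 4 was mt-Nd3, at 0.266 to 26.6 CPM per library with its copy. Counting the rRNAs, 9 members were called in the SPF small intestine, but 5 without non-neuronal replicate 2 or neuronal replicate 3, 4 without neuronal replicate 1 and 3 without neuronal replicate 2.

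Complex I, the NADH dehydrogenase that feeds electrons into the respiratory chain, has 7 mitochondrially encoded subunits. mt-Nd1 (chrM:2751-3707), which shares no read-length stretch with a copy, was at 800, 870, 1139 and 1520 CPM in SPF colonic non-neuronal libraries and at 92.5, 109, 116 and 108 CPM in neuronal ones. The neuronal libraries lay in a narrow band far below the others (-3.39 ± 0.43, edgeR adjusted p = 7.06e-06). In the SPF small intestine it was at 1888, 2175, 2723 and 2128 CPM against 628, 588, 859 and 1432 CPM, again without overlap (-1.46 ± 0.40, edgeR adjusted p = 0.0142), a call lost without neuronal replicate 1 or 2. mt-Nd2 (chrM:3914-4951), mt-Nd4 (chrM:10167-11544) and mt-Nd6 were also called lower in all 4 comparisons, with log2 fold changes of -3.02, -3.33 and -2.65 in the SPF colon and -1.74, -1.91 and -1.61 in the SPF small intestine. mt-Nd5 (chrM:11742-13565) was called in 3 and missed in the SPF small intestine (-1.72 ± 0.59, edgeR adjusted p = 0.0521). mt-Nd6 (chrM:13552-14070) is the only protein-coding gene on the minus strand. It was at 54.3, 87.7, 74.4 and 49.4 CPM in SPF colonic non-neuronal and 5.78, 10.8, 19.7 and 7.24 CPM in neuronal libraries, so this gene of the opposite strand was lower as well. With the strand setting unknown, its reads cannot be told apart from those of RNA antisense to it.

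mt-Nd4l (chrM:9877-10173) was not called from its own counts in any of the 4 comparisons (-3.61 ± 1.29 in the SPF colon, edgeR adjusted p = 0.0753). With Gm10222 added it was called in all 4 (-3.06 ± 0.68 in the SPF colon, edgeR adjusted p = 0.00387). For mt-Nd3 (chrM:9459-9806) the sum with Gm28438 was 4.29, 3.25, 13.6 and 6.80 CPM in SPF colonic non-neuronal and 1.24, 2.98, 1.79 and 1.39 CPM in neuronal libraries. These values do not overlap, but they rest on 3 to 52 counts per library (-1.96 ± 1.06, edgeR adjusted p = 0.245).

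mt-Cytb (chrM:14145-15288), cytochrome b and the only mitochondrially encoded subunit of complex III, has no read-length stretch in a copy. It was at 1713, 1856, 2158 and 2491 CPM in SPF colonic non-neuronal libraries and 205, 177, 211 and 338 CPM in neuronal ones (-3.19 ± 0.48, edgeR adjusted p = 0.000124). In the SPF small intestine 6204, 6691, 6839 and 3954 CPM stood against 1285, 1576, 2566 and 4008 CPM. There the highest neuronal library, replicate 4, slightly exceeded the lowest non-neuronal one, replicate 4 (-1.45 ± 0.45, edgeR adjusted p = 0.0324). This call was lost without any one of non-neuronal replicates 2 and 3 and neuronal replicates 1, 2 and 3. In GF libraries the log2 fold changes were -2.52 ± 0.54 in the colon and -3.32 ± 0.56 in the small intestine (edgeR adjusted p = 0.00491 and 0.000315).

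Complex IV, cytochrome c oxidase, has its 3 catalytic-core subunits in mt-Co1 (chrM:5328-6872), mt-Co2 (chrM:7013-7696) and mt-Co3 (chrM:8607-9390). mt-Co1 was at 2109, 2368, 3228 and 4277 CPM in SPF colonic non-neuronal libraries and 675, 334, 369 and 422 CPM in neuronal ones (-2.78 ± 0.42, edgeR adjusted p = 0.000105), and it was called lower in all 4 comparisons. mt-Co2 gave -4.68 ± 1.36 from its own counts in the SPF colon, where 3 of 4 neuronal libraries held 0, and -3.24 ± 0.47 with its copies (edgeR adjusted p = 0.0328 and 1.83e-05), and the former call was lost without non-neuronal replicate 3 or 4 or neuronal replicate 2, 3 or 4. In the GF colon all 3 neuronal libraries held 0 own counts of mt-Co2, while the sum with its copies was 35.3, 76.5 and 82.9 CPM, and no fold from the own counts is given. mt-Co3 showed the same dependence. Its own counts gave -6.57 ± 2.84 in the SPF colon (edgeR adjusted p = 0.151). With the copy it was at 101, 87.3, 177 and 182 CPM against 59.5, 24.9, 30.5 and 27.9 CPM (-1.98 ± 0.46, edgeR adjusted p = 0.00309). In the GF small intestine a call from its own counts at -12.07 ± 3.75 became -3.02 ± 0.55 with the copy (edgeR adjusted p = 0.0456 and 0.000157). The former was lost without any one of the 6 libraries.

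The ATP synthase has 2 mitochondrially encoded subunits of its membrane part. mt-Atp8 (chrM:7766-7969) was at 76.5, 113, 106 and 121 CPM in SPF colonic non-neuronal and 9.91, 10.3, 13.1 and 10.9 CPM in neuronal libraries (-3.29 ± 0.47, edgeR adjusted p = 5.99e-06), and it was called lower in all 4 comparisons. Its neighbour mt-Atp6 (chrM:7927-8607), the proton-channel subunit, was not called in any from its own counts (-1.29 ± 2.43 in the SPF colon, edgeR adjusted p = 0.81). With its copies it was at 391, 675, 717 and 855 CPM against 34.3, 39.0, 74.3 and 51.3 CPM (-3.77 ± 0.47, edgeR adjusted p = 4.16e-06), and it was called lower in all 4.

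**Figure D3:**
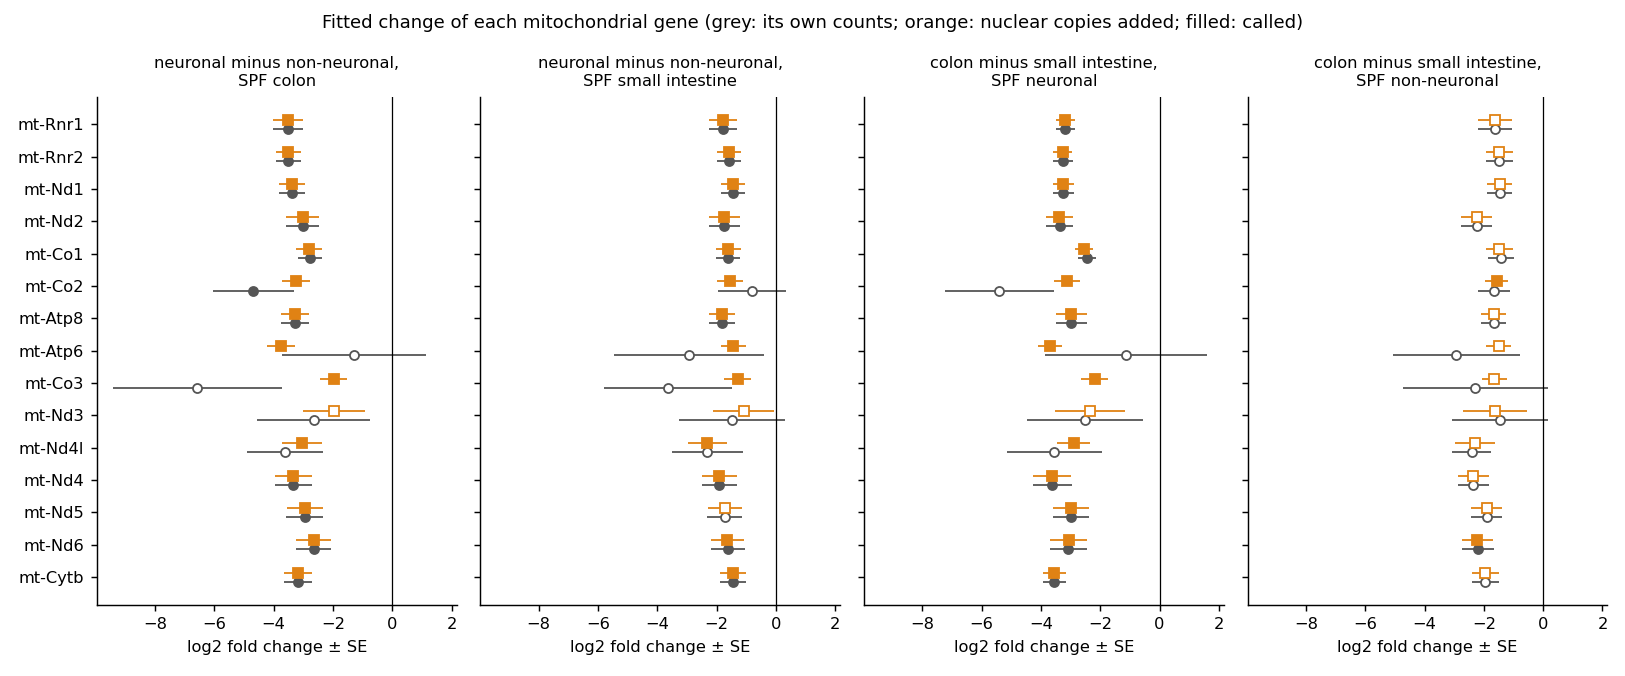
Fitted log2 fold change with its SE for the 15 mitochondrial mRNAs and rRNAs in 4 SPF comparisons: neuronal against non-neuronal in the colon and the small intestine, and colon against small intestine in each fraction. Grey circles use a gene's own counts and orange squares add its nuclear copies, with filled symbols for called genes; mt-Atp6 in the colon moves from -1.29 to -3.77.

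For the segments, 8 of 12 protein-coding genes tested from their own counts were called lower in the colon in SPF neuronal libraries, where 0.405% of 17298 genes were, and 12 of 13 with copies. The 8 were mt-Nd1, mt-Nd2, mt-Nd4, mt-Nd5, mt-Nd6, mt-Cytb, mt-Co1 and mt-Atp8. mt-Cytb, whose values are given above, had a log2 fold change of -3.54 ± 0.39 (edgeR adjusted p = 5.47e-05). mt-Nd1 had -3.25 ± 0.35 (edgeR adjusted p = 4.99e-06) and mt-Co1 -2.45 ± 0.31 (edgeR adjusted p = 6.67e-05). These 3 kept their calls without any one library. The calls of mt-Nd4 and mt-Nd5 were each lost without any one of 6 libraries, the 4 of the colon and small intestinal replicates 2 and 3, and that of mt-Nd6 without colonic replicate 1 or 2 or small intestinal replicate 4. mt-Atp6 moved from -1.12 ± 2.74 to -3.69 ± 0.40 when its copies were added (edgeR adjusted p = 0.934 and 3.25e-06). In GF neuronal libraries 3 of 12 were called, where the background was 0.168%. These were mt-Nd1, mt-Cytb and mt-Co1, at -1.96 ± 0.38, -2.48 ± 0.43 and -2.25 ± 0.35, and with copies 5 of 13 were called, mt-Co2 and mt-Atp6 joining them. This count of members called, rRNAs included, fell from 5 to 1 without GF colonic neuronal replicate 1, to 2 without replicate 2 or 3 and to 3 without GF small intestinal neuronal replicate 3.

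In non-neuronal libraries, 1 of 13 protein-coding genes was called lower in the SPF colon, where 0.531% of 18267 genes were. This was mt-Nd6, at 54.3, 87.7, 74.4 and 49.4 CPM in the colon and 157, 379, 265 and 93.5 CPM in the small intestine (-2.21 ± 0.53, edgeR adjusted p = 0.0362, and -2.22 ± 0.52 with its copy, edgeR adjusted p = 0.0328). With copies mt-Co2 was called as well (-1.57 ± 0.39, edgeR adjusted p = 0.0499). The median of the 13 was -1.95, so the genes that missed the threshold also had negative values. The count was 0 without any one of the 4 colonic replicates or of small intestinal replicates 2 and 3, and 3 without small intestinal replicate 1. When only the 8 libraries compared were fitted, 11 members were called. Shares of all genes called in that fit and in the refits without a library are not given here. In GF non-neuronal libraries 8 of 13 were called lower in the colon (background 0.493%, median -3.17), and 9 with copies. mt-Nd1, for example, was at 1923, 962 and 1133 CPM in the colon and 10554, 3647 and 4629 CPM in the small intestine (-3.17 ± 0.52, edgeR adjusted p = 0.00951), a call lost without colonic replicate 2 or 3. The count of 8 fell to 1 without GF colonic replicate 2 or 3, and to 3 without colonic replicate 1 or small intestinal replicate 3.

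With the low-count filter and no replicate block, edgeR called no mitochondrial gene between SPF and GF libraries in any of 4 comparisons with all libraries. The background was 0% in 3 of them and 0.00547% in small intestinal non-neuronal libraries. In data simulated for that last comparison, this fit called 0%, 8% and 38% of genes changed 2-, 4- and 8-fold, all drawn above a minimum level. A lack of calls therefore does not show a lack of change. At an unadjusted p below 0.05, 6 of 14 members tested passed in colonic neuronal, 0 of 14 in small intestinal neuronal, 1 of 15 in colonic non-neuronal and 11 of 15 in small intestinal non-neuronal libraries. The share of all genes at that threshold is not given here, so these counts have no background. DESeq2 called 1, 0, 0 and 2 members, and 138, 10, 5 and 374 of all genes. Without the low-count filter edgeR called 3, 0, 0 and 4 members, and 80, 1, 0 and 161 of all genes. Median log2 fold changes (SPF minus GF) of the protein-coding genes were -0.68, 0.07, -0.39 and -1.59. mt-Nd1 in small intestinal non-neuronal libraries, at 1888 to 2723 CPM in SPF and 3647 to 10554 CPM in GF, did not overlap between the states (-2.04 ± 0.45, edgeR adjusted p = 0.245). Without GF replicate 2 of that group 5 members were called, and the share of all genes called in that refit is not given here.

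The interaction of segment and fraction tests whether the segment difference is larger in neuronal than in non-neuronal libraries. With edgeR and the low-count filter it gave no called member in SPF or in GF libraries, where 0.892% and 0.21% of genes were called. At an unadjusted p below 0.05, 7 of 15 members passed in SPF and 1 of 15 in GF libraries, and DESeq2 called 0 and 1, and 810 and 509 of all genes. The count depended on the filter and the fit. Without the filter edgeR called 8 members in SPF and 1 in GF libraries (630 and 296 of all genes), and with only the compared groups fitted 2 and 1 (157 and 105 of all genes). Without SPF colonic neuronal replicate 1 the edgeR count in SPF libraries was 1. The interaction of microbiota and segment gave no call within neuronal or non-neuronal libraries (background 0% in both), and DESeq2 called none. At an unadjusted p below 0.05, 3 of 14 members passed in neuronal and 4 of 15 in non-neuronal libraries. For neither interaction is the share of all genes at the unadjusted threshold given here. Without the filter edgeR called 0 and 1 members.

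The pair of SPF replicates mattered most in the small intestine. With replicates 1 and 2 alone the log2 ratio of protein-coding shares between fractions was -2.22 there, and with replicates 3 and 4 alone -1.04. In the colon the values were -2.78 and -3.21. For segments they were -2.36 and -3.24 in neuronal and -1.80 and -1.07 in non-neuronal libraries. Members called between fractions were 5 and 7 in the SPF colon (11 with all libraries) and 4 and 0 in the SPF small intestine (9 with all). The SPF-to-GF ratio in small intestinal neuronal libraries was -0.65 with replicates 1 and 2 and 0.38 with replicates 3 and 4.

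The rRNA part of the mitochondrial counts varied little beside their level. The rRNAs made up 73.4% to 83.2% of all mitochondrial counts in every library, although the rRNA share of library counts itself ran from 0.310% to 26.4%. mt-Rnr2 had 1.13 to 2.49 counts for each count of mt-Rnr1. From own counts, mt-Co1 made up 20.4% to 51.8% of the mRNA counts over all libraries. mt-Nd4 made up 7.09% to 21.4% in neuronal libraries. In SPF libraries 14 quantities, the share of each protein-coding gene in the mRNA counts and that of rRNA in all mitochondrial counts, were compared in 4 comparisons. None of the 56 passed (exact permutation tests, lowest adjusted p = 0.457), and 3 had an unadjusted p below 0.05. A test could pass only if most of the 56 reached the smallest p possible, so this does not show an equal composition. With copies added 4 had, and again none passed (lowest adjusted p = 0.4 in exact permutation tests). Among these, mt-Co3 made up 2.66% of mRNA counts in SPF colonic neuronal and 1.23% in non-neuronal libraries. mt-Co1 made up 27.8% in SPF colonic and 22.7% in small intestinal non-neuronal libraries, and mt-Nd4 made up 13.8% and 19.2%. mt-Nd4l made up 1.32% in SPF small intestinal neuronal and 2.10% in non-neuronal libraries. Each had an exact permutation p of 0.0286, the smallest that 4 libraries against 4 allow.

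Per kilobase of gene and with copies added, the genes stood in nearly the same order in both fractions, as a description over 14 libraries each. The rRNAs led with medians of 5587 (mt-Rnr2) and 5176 (mt-Rnr1) CPM per kilobase in neuronal and 31530 and 33670 in non-neuronal libraries, so their order differed between fractions within the spread. The most abundant mRNAs were mt-Co1, with a median of 797 CPM per kilobase in neuronal and 3798 in non-neuronal libraries, and mt-Cytb, with 754 and 3275. mt-Nd1 (494 and 1991) and mt-Nd4 (358 and 2424) followed. mt-Nd6, the only mRNA of the other strand, had 43.0 and 231, below 11 other mRNAs, and mt-Nd3 was last with 12.1 and 25.9. mt-Co3 had 108 and 346. Neighbours in this order overlapped in their ranges over libraries, except mt-Nd6 and mt-Nd3 in the non-neuronal fraction.

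**Figure D4:**
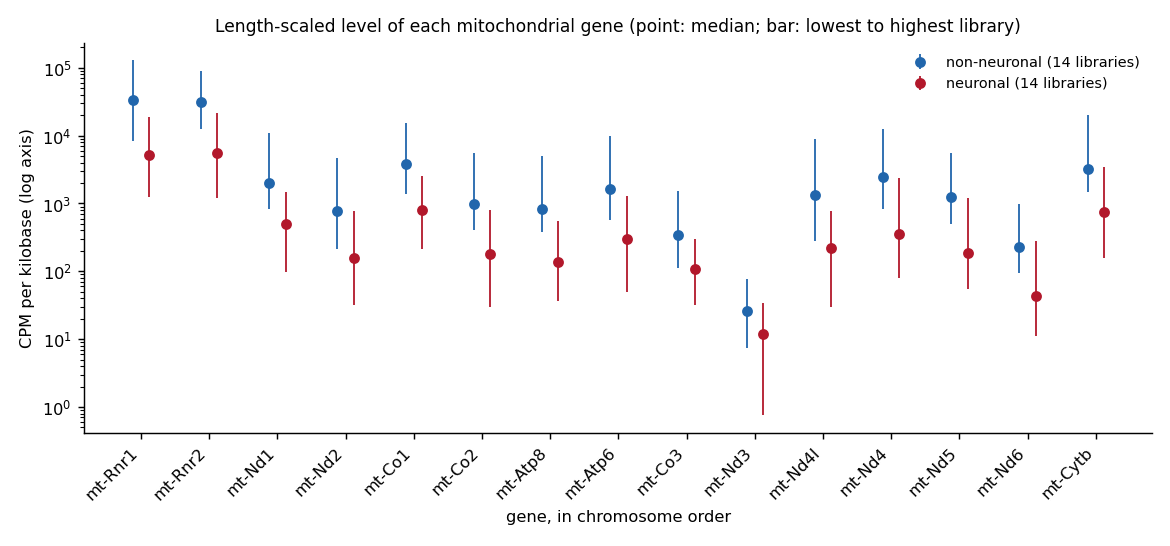
CPM per kilobase on a log axis for the 15 mRNA and rRNA genes in chromosome order, with nuclear copies added; points are medians and bars run from the lowest to the highest of 14 libraries in each fraction. The neuronal median lies below the non-neuronal one for every gene, from 12.1 against 25.9 for mt-Nd3 to 5176 against 33670 for mt-Rnr1.

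Transcripts of the tRNA genes were almost not counted. Of 22 genes, 17 had no count in any library, and the other 5 had 49 together, too few to test. All but mt-Tl1 are shorter than a read. mt-Tl1, the leucine tRNA gene that lies between mt-Rnr2 and mt-Nd1, is exactly 75 bases long.
mt-Tl1: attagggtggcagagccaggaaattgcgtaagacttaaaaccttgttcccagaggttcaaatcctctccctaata
It held 39 of the 49 counts, in 13 libraries, 23 of them in the GF and 7 in the SPF small intestinal non-neuronal libraries. mt-Ts1, which overlaps mt-Co1 by 3 bases on the opposite strand, held 6, mt-Te held 2 and mt-Tm and mt-Ty held 1 each. The genes without counts were mt-Ta, mt-Tc, mt-Td, mt-Tf, mt-Tg, mt-Th, mt-Ti, mt-Tk, mt-Tl2, mt-Tn, mt-Tp, mt-Tq, mt-Tr, mt-Ts2, mt-Tt, mt-Tv and mt-Tw. A count of 0 allows up to 0.41 to 1.25 CPM in a library (3 counts, counting error only).

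Nuclear genes of the same organelle were listed for comparison. Of 76 nuclear-encoded subunits of the respiratory complexes and the ATP synthase, 74 were tested between fractions and 73 in each other pairwise comparison. Between fractions edgeR called 1 of them, Ndufs3 of complex I, in the SPF small intestine (mean 13.4 CPM in the neuronal and 51.3 CPM in the non-neuronal group, -2.07 ± 0.72, edgeR adjusted p = 0.0433), where 5.99% of all genes were called lower. In that comparison 7 subunits had an unadjusted p below 0.05 and DESeq2 called 6. Ndufs3 was not called in either pair of SPF replicates, nor without any one of 6 of the 8 libraries compared (all but non-neuronal replicates 2 and 4). edgeR called 0 in the other 11 pairwise comparisons, where 1 to 6 had an unadjusted p below 0.05 and DESeq2 called 0 to 4. Of 36 genes for transcription and replication of mitochondrial DNA and for processing of its RNA, edgeR called 0 in all 12, with 0 to 3 at an unadjusted p below 0.05 and 0 to 2 called by DESeq2. Shares of all genes at the unadjusted threshold, and under DESeq2 between fractions and segments, are not given here. In data simulated for the fractions of the SPF colon, edgeR called 4%, 14% and 58% of genes changed 2-, 4- and 8-fold, so smaller changes would mostly be missed. The genes changed were drawn above a minimum level, so recovery of less abundant genes was not measured.

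Among 8 regulators of mitochondrial biogenesis, Ppargc1a, a transcriptional coactivator, was called lower in neuronal libraries in 3 of 4 comparisons. Its mean in the SPF colon was 57.2 CPM for neuronal and 213 CPM for non-neuronal nuclei (-1.98 ± 0.65, edgeR adjusted p = 0.0465), 11.8 and 110 CPM in the GF colon (-3.11 ± 0.79, edgeR adjusted p = 0.0129) and 53.7 and 303 CPM in the GF small intestine (-3.21 ± 0.79, edgeR adjusted p = 0.0061). In the SPF small intestine it was not called, at 181 and 125 CPM (0.43 ± 0.63, edgeR adjusted p = 0.703). The call was lost in the SPF colon with either pair of replicates and without any one of 5 libraries (non-neuronal 2 and 4, neuronal 2, 3 and 4), in the GF colon without neuronal replicate 1 or 2 and in the GF small intestine without non-neuronal replicate 3. Of 78 mitochondrial ribosomal protein genes, 3 were called lower in 1 fraction comparison each, against 7.56% of all genes in the SPF colon, 5.99% in the SPF and 5.33% in the GF small intestine. Mrps2 fell by 3.54 on the log2 scale in the SPF small intestine (edgeR adjusted p = 0.0158), a call lost without non-neuronal replicate 2 or neuronal replicate 3. Mrps23 fell by 2.12 in the GF small intestine, a call lost without 5 of its 6 libraries (all but non-neuronal replicate 1), and Mrpl36, named after its values were seen, was at 0 in all SPF colonic neuronal libraries and at a mean of 2.77 CPM in the non-neuronal ones. None of 79 cytosolic ribosomal protein genes tested was called between fractions.

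As transcripts held in the nucleus, 7 long noncoding RNAs were examined. In the SPF small intestine 4 were called higher in neuronal libraries, where 9.09% of all genes were, and none lower. These were Meg3, Rian, Mirg and Miat, with Meg3 at 16190 against 874 CPM (4.08 ± 0.46, edgeR adjusted p = 1.88e-06). Malat1, Neat1 and Kcnq1ot1 were not called higher in neuronal libraries in any comparison between fractions. In the SPF colon the same 4 were called higher (3.27% of all genes) and 1, Neat1, lower (7.56%) (-1.22 ± 0.30, edgeR adjusted p = 0.00509), a call lost without non-neuronal replicate 2. In the GF colon 2, Meg3 and Rian, were called higher (2.19%). In the GF small intestine the same 4 as in SPF were called higher (5.6%) and Malat1 lower (-0.65 ± 0.20, edgeR adjusted p = 0.028). The Malat1 call was lost without non-neuronal replicate 1 or 3 or neuronal replicate 1 or 2. Malat1 was called lower in colonic than in small intestinal nuclei in SPF neuronal libraries (-0.78 ± 0.17, edgeR adjusted p = 0.0275) and in SPF non-neuronal libraries (-0.88 ± 0.16, edgeR adjusted p = 0.00465), as was Kcnq1ot1 (-1.02 and -0.98). In the neuronal comparison the Malat1 call was lost without colonic replicate 1, 2 or 3 or small intestinal replicate 1 or 4, and that of Kcnq1ot1 without any library but colonic replicate 4 and small intestinal replicate 1. Malat1 was also lower in the colon in GF non-neuronal libraries (-0.88 ± 0.19, edgeR adjusted p = 0.0196), a call lost without any colonic replicate or small intestinal replicate 1. Neat1 went the other way in SPF non-neuronal libraries, with means of 4102 CPM in the colon and 1199 CPM in the small intestine (1.37 ± 0.33, edgeR adjusted p = 0.0362), a call lost without colonic replicate 2 or small intestinal replicate 1, 3 or 4. In the SPF non-neuronal comparison Kcnq1ot1 was not called without colonic replicate 1, 2 or 4 or small intestinal replicate 2 or 3.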

How the data were processed

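The authors deposited expected counts per gene, which are estimates that divide reads matching several genes, and 7.478% of the values were not whole. The submitters' processing notes name GRCm38 and the tools STAR 2.5.2, RSEM 1.3.0 and DESeq2 1.10.1, without their roles. Per the labels' protocols, cDNA was amplified before library making, 8 PCR cycles followed, and single reads of 75 bases were taken, with no molecular identifiers.

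Values were rounded to whole counts. CPM are counts scaled to a common library total. Genes were matched to GENCODE M21 (51719 genes; 193 unmatched, kept). Nuclear copies are annotated genes matching a mitochondrial gene over at least 100 bases at 90% identity. Groups followed the labels. The 36 pairs of libraries within groups were compared for identity, and all differed.

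Genes were tested with edgeR 4.0.16 under R 4.3.3 by its quasi-likelihood F test (TMM scaling, low-count filter by group, robust dispersion, Benjamini-Hochberg adjustment over all genes tested, called below 0.05, two-sided), on all 28 libraries for fractions and for segment-by-fraction interactions, and otherwise on the 14 libraries of a fraction (17298 neuronal and 18267 non-neuronal genes). Log2 fold changes are from these fits, and SE is the absolute value over the square root of F. Shares and composition were compared with exact permutation tests (SciPy 1.17.1) on mean log2 percent and mean percent. The edgeR and permutation steps were tested on simulated data.

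Every mitochondrial gene was accounted for, with values for those with a mean of at least 1 CPM in a group. From each nuclear list up to 2 called genes per direction and comparison with the largest change and a mean of at least 5 CPM qualified for naming. The members and lists were chosen with earlier results of these data known. Alternatives were relative-log size factors, scaling on nuclear genes, DESeq2 1.42.0, no low-count filter, only the compared groups, a replicate block, summed overlapping genes, other denominators and leaving out each library. Added copies and the pairs of SPF replicates were chosen after seeing the data.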

Additional observations from a re-analysis of the deposited data

Results flagged for a closer look

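Among 80 groups of 4 libraries examined for a library far from the others, 2 held one, and chance alone gives about 1 in 20. mt-Co3 with its nuclear copy was at 59.48 CPM in SPF colonic neuronal replicate 1, while the group's median was 29.2 and its lowest value 24.9 CPM. The gap to the next library was 0.838 of the group's range, above the critical value of 0.829. mt-Co1 made up 34.99% of the mitochondrial mRNA counts in SPF small intestinal neuronal replicate 1, with a group median of 22.6% and a lowest value of 20.9%, a gap of 0.851 of the range.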

How the results depend on the processing

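No called result reversed its direction under any alternative. Numbers below are members called, mostly without the share of all genes called under the same setting. The cause of each move was not tested, also where a setting used fewer libraries. With DESeq2 the counts were 11 (main 5) for segments in GF neuronal, 8 (main 1) in SPF non-neuronal and 13 (main 8) in GF non-neuronal libraries, 1 and 2 (main 0) between SPF and GF in colonic neuronal and small intestinal non-neuronal libraries, and 1 (main 0) for the segment-by-fraction interaction in GF libraries. Without the low-count filter they were 6 for segments in SPF non-neuronal, 3 and 4 between SPF and GF in colonic neuronal and small intestinal non-neuronal libraries, 8 and 1 for the segment-by-fraction interaction in SPF and GF, and 1 for the microbiota-by-segment interaction in non-neuronal libraries. With only the compared groups fitted they were 11 and 5 for segments in SPF and GF non-neuronal libraries and 2 and 1 for the segment-by-fraction interaction in SPF and GF. Relative-log size factors gave 5 for segments in GF non-neuronal libraries, and added copies gave 2 in SPF non-neuronal ones.

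With SPF replicates 1 and 2 alone, and then 3 and 4 alone, the counts were 5 and 7 between fractions in the SPF colon (main 11), 4 and 0 in the SPF small intestine (main 9), 5 and 7 for segments in SPF neuronal (main 10), 0 and 0 in SPF non-neuronal and 3 and 3 in GF non-neuronal libraries, where the other SPF libraries left the fit. The segment-by-fraction interactions gave 0 and 1 in SPF and in GF libraries. The log2 share ratio was -2.22 and -1.04 between fractions in the SPF small intestine and -1.80 and -1.07 between segments in SPF non-neuronal libraries. The rRNA percent of mitochondrial counts differed between fractions in the SPF colon by -1.89 and -7.53 percentage points (main -4.71). The uncalled SPF-to-GF ratio in small intestinal neuronal libraries also turned positive, at 0.24, without 1 library.

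Leaving out each library in turn gave 3 to 10 members between fractions in the SPF small intestine, 1 to 5 and 1 to 11 for segments in GF neuronal and non-neuronal and 0 to 3 in SPF non-neuronal libraries, 0 to 5 between SPF and GF in small intestinal non-neuronal libraries and 0 to 1 for the segment-by-fraction interaction in SPF. Log2 share ratios between fractions or segments stayed between -3.11 and -1.31. Single genes lost a call in 165 such refits and in 100 refits under the other settings. Medians of the nuclear lists moved by at most 0.069 on the log2 scale when scaling used nuclear genes only.

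Deviations of same-numbered libraries correlated at most at 0.075, which does not decide whether replicate numbers pair the libraries. Between fractions, same-numbered libraries were each other's best match in 3 of 4 pairs in either SPF segment. This held for 2 of 3 pairs in the GF small intestine and 0 of 3 in the GF colon. Between segments it held for 3 of 3 pairs in GF non-neuronal, 1 of 3 in GF neuronal and 2 of 4 in either SPF fraction. In every SPF group replicates 3 and 4 also stood apart in Xist. The main fits used no pairing. With the number as a replicate block, 8 members were called for segments in GF neuronal, 2 in SPF non-neuronal and 2 between SPF and GF in colonic neuronal libraries, where 2 of all genes were called, and the log2 share ratio between fractions in the SPF colon was -2.99. mt-Nd3, with 1 to 122 counts per library including its copy, had SEs of 1.02 to 1.34 in the pairwise comparisons with the copy added.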
